A study of Homo sapiens with 34 samples.

Results

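Collagens are the most abundant structural proteins of the extracellular matrix, and the sites of the transcription factors RBPJ and SOX2 at their genes were described across 8 lists of chromatin immunoprecipitation and sequencing (ChIP-seq) peaks. The collagen genes were the GENCODE protein-coding genes whose symbols read COL, digits, A, digits, such as COL1A1, and they numbered 44 of the 19970 protein-coding genes on chromosomes 1 to 22 and X. Chromatin came from MB157, a triple-negative breast cancer (TNBC) line that makes a NOTCH1 lacking its extracellular domain, and from MB157R, a GSI-resistant line derived from it by 25 weeks of culture with 1 µM of a γ-secretase inhibitor (GSI). All cells carried a doxycycline-inducible vector and received 1 µg/ml doxycycline for 72 h. The vector was the empty control (iEV) in both lines, an HA-tagged SOX2 (iSOX2) in MB157 and a NOTCH1 without its extracellular domain (iN1-ICD) in MB157R. RBPJ was precipitated in all 4 kinds of cells, SOX2 in both kinds of MB157R cells and the HA tag in MB157 iSOX2, with a control HA precipitation in MB157 iEV cells, which lack the tag. The study thus compared 1 parental line with 1 resistant line derived from it, and each vector with the empty vector in the same line.

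Of the 34 libraries, 12 were inputs (4 groups) and 22 were immunoprecipitations (8 groups of 3, with 1 for the HA control). The authors pooled the libraries of a group before calling peaks, so each condition is 1 list, the spread between replicates is unknown, and no test was run. Intervals are exact and cover counting error only. They treat genes and summits as independent, although neighboring ones share a region. The lists held 25243 to 46601 peaks for RBPJ, 37963 for SOX2 in MB157R iEV, 323 for SOX2 in MB157R iN1-ICD, 108203 for HA-SOX2 and 77 for the HA control. The genome background, taken as the fewest fragments expected at any peak of a list, was 1.6 to 2.24 in the lists of 3 libraries and 0.524 in the HA control. Expression was not measured by these libraries, and the line was checked only through peaks at marker genes. Of 6 mammary epithelial markers, 1 had an RBPJ promoter summit in MB157 iEV (16.7%, against 38% of all genes). With iSOX2 there were 3 (50%, against 50.4%). The resistant line had 3 with iEV (50%, against 56.1%) and 4 with iN1-ICD (66.7%, against 43%). SOX2 in MB157R iEV was at 2 (33.3%, against 21.8%) and HA-SOX2 at 5 (83.3%, against 34%). RBPJ was thus above all genes with iN1-ICD only, so its summits at these markers do not identify the line. Of 4 liver, 4 blood cell and 4 muscle markers, 0 had an RBPJ or SOX2 promoter summit. The HA-SOX2 list had 1 blood cell and 1 muscle marker (25% each, against 34%). Of 4 fibroblast markers, 1 had an RBPJ promoter summit in MB157 iEV (25%, against 38%), 1 in MB157R iN1-ICD (25%, against 43%) and 0 in the other lists. A site not called in a list fell below its threshold there and is not shown to be free of the factor.

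Collagens are trimers of α chains, each of which winds around its partners in a triple helix. Fibrillar collagens form the fibrils of connective tissue, type IV collagens form the network of basement membranes, fibril-associated collagens sit on the surface of fibrils, and transmembrane collagens anchor cells to the matrix. RBPJ binds DNA at TGGGAA and, with the intracellular domain of a NOTCH receptor, turns on NOTCH target genes. SOX2, known from pluripotent and neural stem cells, bends DNA at ACAAAG-like words. In breast carcinoma, collagens are made by fibroblasts and also by tumor cells, in particular those with mesenchymal features.

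The RBPJ sites that lead the account below are shown first, as 81 bases of hg38 around the summit, plus strand, 5′ to 3′. Each was chosen because its ratio was the highest of its gene in the list named and because it held the RBPJ motif, and the COL1A1 site was added after its values had been seen. Capitals mark TGGGAA or its reverse complement TTCCCA.
COL18A1 intron 2: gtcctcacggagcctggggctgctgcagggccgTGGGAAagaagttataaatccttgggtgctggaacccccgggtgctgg
COL18A1 promoter: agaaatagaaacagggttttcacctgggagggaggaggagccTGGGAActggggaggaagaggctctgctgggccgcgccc
COL27A1 intron 4: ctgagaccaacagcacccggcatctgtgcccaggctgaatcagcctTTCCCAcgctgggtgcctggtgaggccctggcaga
COL4A2 intron 18: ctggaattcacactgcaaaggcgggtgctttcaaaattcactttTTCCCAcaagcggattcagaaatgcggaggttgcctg
COL4A1 intron 1: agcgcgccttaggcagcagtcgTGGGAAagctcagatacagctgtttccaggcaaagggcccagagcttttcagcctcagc
COL25A1 intron 10: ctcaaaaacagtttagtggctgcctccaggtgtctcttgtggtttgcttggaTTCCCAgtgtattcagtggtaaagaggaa
COL1A1 downstream: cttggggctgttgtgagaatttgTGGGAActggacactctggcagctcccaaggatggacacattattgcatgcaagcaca
The windows are chr21:45455273-45455353 in intron 2 of COL18A1, chr21:45404501-45404581 at its promoter, chr9:114179080-114179160 in intron 4 of COL27A1, chr13:110448339-110448419 in intron 18 of COL4A2, chr13:110306376-110306456 in intron 1 of COL4A1, chr4:108940250-108940330 in intron 10 of COL25A1 and chr17:50178696-50178776 beyond the 3′ end of COL1A1. In all 7 the motif occurs once within the printed window, and in COL18A1 intron 2 its first base lies 7 bases before the summit.

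Sites of SOX2 or HA-SOX2 are printed in the same format, with capitals for the SOX words ACAANG and AACAAT or their reverse complements. The HA-SOX2 sites had the highest ratio of their gene in that list. The SOX2 site, with a ratio of 11.4, did not, as intron 3 of COL4A2 had 13.7. The search used both words, which overlap in AACAATG, so that 1 stretch can be counted by both.
COL4A2 intron 20: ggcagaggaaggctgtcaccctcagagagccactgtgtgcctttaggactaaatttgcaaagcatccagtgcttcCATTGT
COL17A1 intron 4: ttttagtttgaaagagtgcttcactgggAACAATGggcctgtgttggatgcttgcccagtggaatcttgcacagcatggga
COL21A1 intron 1: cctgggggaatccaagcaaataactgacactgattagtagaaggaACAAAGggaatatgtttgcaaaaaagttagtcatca
COL4A1 and COL4A2 upstream: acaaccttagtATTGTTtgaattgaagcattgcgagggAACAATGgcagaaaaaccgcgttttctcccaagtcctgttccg
These are chr13:110454297-110454377 in intron 20 of COL4A2, chr10:104076886-104076966 in intron 4 of COL17A1 and chr6:56220313-56220393 in intron 1 of COL21A1, all from the HA-SOX2 list. The last is chr13:110308599-110308679, from the SOX2 list of MB157R iEV. Although labelled with both genes, it lies upstream of COL4A1 only, and inside COL4A2, downstream of the COL4A2 start. In COL17A1 both SOX words overlap 12 and 11 bases before the summit, whereas in COL4A2 intron 20 the word lies 35 bases after it. A match is a description of the letters in the window and does not by itself make a binding site.

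Promoters of collagen genes carried RBPJ summits in every RBPJ list, at shares below those of all genes, and their gene bodies carried summits at shares above those of all genes. A promoter summit lay within 1 kb of the transcription start site (TSS). With the empty vector in MB157, 13 of 44 collagen promoters (29.5%, 95% interval 16.8 to 45.2) had an RBPJ summit, against 38% of all protein-coding genes. In MB157 iSOX2 they were 18 (40.9%, 26.3 to 56.8), against 50.4%. In MB157R iEV they were 21 (47.7%, 32.5 to 63.3), against 56.1%. In MB157R iN1-ICD they were 14 (31.8%, 18.6 to 47.6), against 43%. The share of all genes lay within the interval of the collagen genes in each of these 4 lists as deposited. With only the peaks of a −log10 q of at least 5, RBPJ in MB157 iSOX2 was at 8 collagen promoters (18.2%, 8.19 to 32.7), against 34.4%, which lay outside the interval, and in MB157R iN1-ICD it was at 14 (31.8%), against 28%, above all genes. SOX2 in MB157R iEV was at 9 collagen promoters (20.5%, 9.8 to 35.3), against 21.8%. HA-SOX2 in MB157 iSOX2 was at 6 (13.6%, 5.17 to 27.4), against 34%, the only deposited list in which the share of all genes lay outside the interval. That gap depended on the start site and on the length of the list. When the list was shortened to the 37963 strongest peaks, the length of the SOX2 list, HA-SOX2 was at 0 of 44 collagen promoters (interval up to 8.04%), against 3.98% of all genes. With the start of any annotated transcript, HA-SOX2 was at 18 collagen promoters (40.9%), against 45% of all genes, and SOX2 was at 16 (36.4%), against 30%. The RBPJ gap also depended on the start site. With any start, RBPJ was at 45.5% and 59.1% of collagen promoters in MB157 iEV and iSOX2, against 46.2% and 59.4% of all genes. In MB157R iEV and iN1-ICD it was at 56.8% and 38.6%, against 65.2% and 51.9%. SOX2 in MB157R iN1-ICD was at 0 of 44 promoters, where the interval reached 8.04% and 0.0751% of all genes had a summit.

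**Figure D1:**
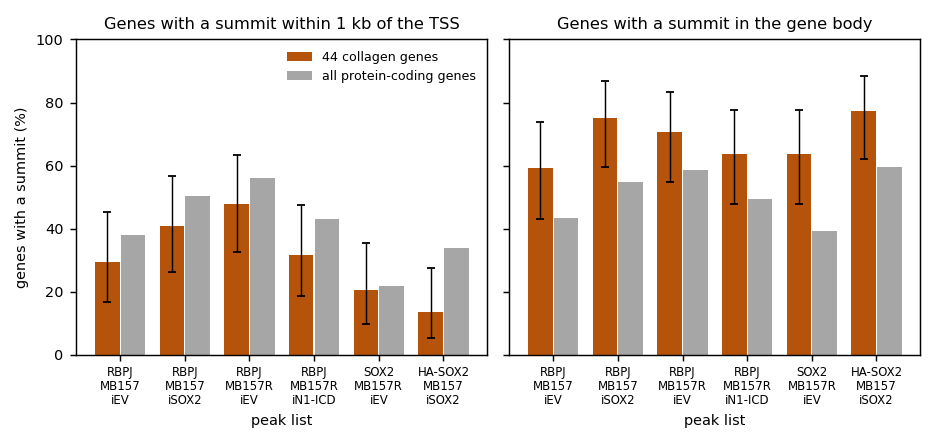
Share of the 44 collagen genes (brown, with exact binomial 95% intervals) and of all 19970 protein-coding genes (grey) with a summit within 1 kb of the TSS (left) or in the gene body (right), in percent, for 6 peak lists. The brown bars are below the grey ones at promoters and above them in gene bodies.

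In gene bodies, RBPJ summits were found in 26 collagen genes of MB157 iEV (59.1%, against 43.5% of all genes) and 33 of MB157 iSOX2 (75%, against 54.9%). In MB157R they were found in 31 with iEV (70.5%, against 58.5%) and 28 with iN1-ICD (63.6%, against 49.3%). SOX2 in MB157R iEV was in the body of 28 (63.6%, against 39.4%) and HA-SOX2 in that of 34 (77.3%, against 59.7%). Collagen genes are long, with a median of 145 kb against 27.5 kb for all genes, and 26 of 44 exceed 100 kb. Per 100 kb of gene body, collagen genes held 1.17, 1.76, 1.63 and 1.23 RBPJ summits in the 4 lists (MB157 iEV, MB157 iSOX2, MB157R iEV, MB157R iN1-ICD), and all genes held 1.11, 1.54, 1.99 and 1.57. The corresponding densities were 1.27 and 1.48 for SOX2 and 3.74 and 4.29 for HA-SOX2. Counted by length, collagen bodies were thus above all genes in both MB157 RBPJ lists and below them in the other 4 lists. Within 50 kb of the TSS, RBPJ summits were found at 30 (against 73.2% of all genes), 34 (82.9%), 37 (85.6%) and 33 (78.4%) of the 44 collagen genes, SOX2 summits at 31 (72.3%) and HA-SOX2 summits at 37 (91.4%). The HA control had a summit within 50 kb of 0 collagen genes, against 0.546% of all genes, and SOX2 in MB157R iN1-ICD had 0 in the body (against 0.596%) and 0 within 50 kb (against 1.09%).

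All 44 collagen genes had a summit of some list in the promoter, the body or within 50 kb, against 97% of all genes. RBPJ was called in at least 1 of its lists at 40 of them (90.9%, against 92.6%), and the exceptions were COL3A1 (type III collagen of skin and vessel walls), COL6A5, COL6A6 and COL10A1 (a network collagen of growth plate cartilage). HA-SOX2 was called at 39 (88.6%, against 92.4% of all genes), and the exceptions were COL4A5, COL4A6, COL5A1, COL6A5 and COL13A1. A promoter summit of any list was missing at 17 genes (38.6%, against 32.1% of all genes), among them COL2A1, COL3A1, COL5A1, COL5A2, COL5A3 and COL11A1 of the fibrillar class.

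**Figure D2:**
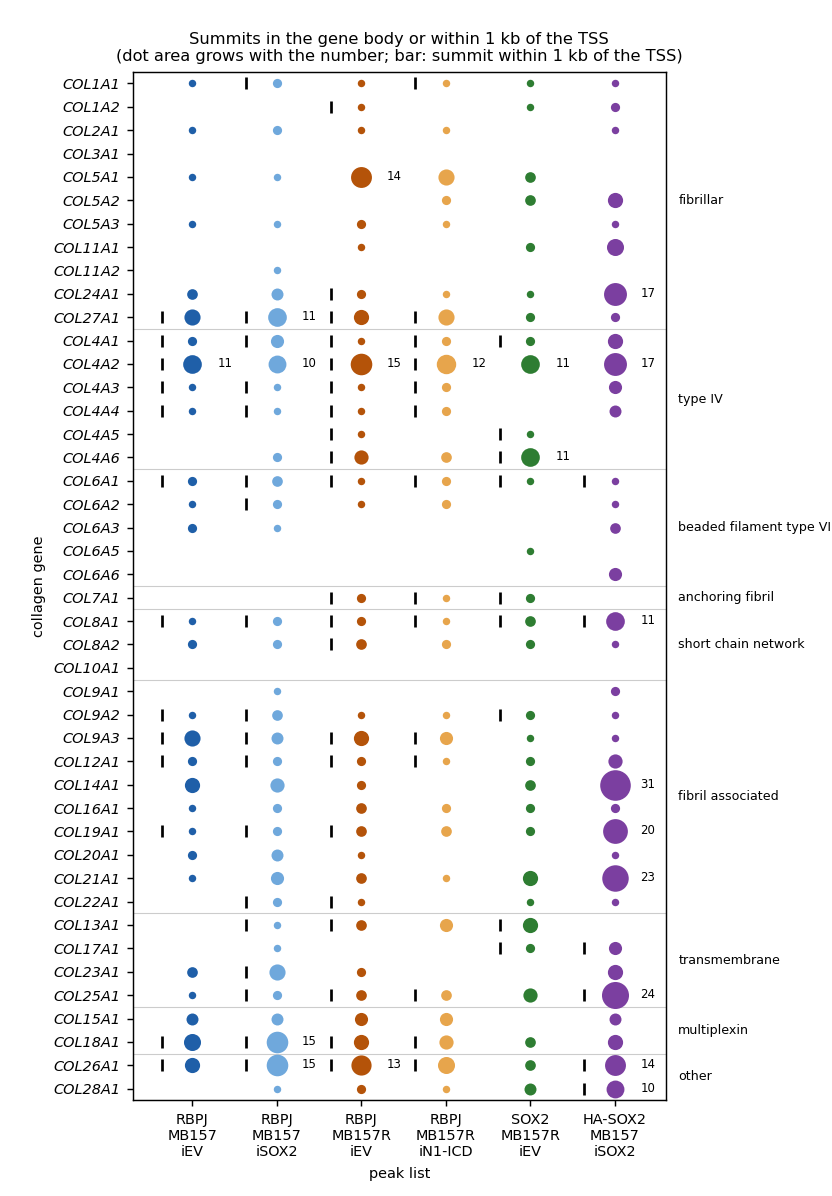
Number of summits in the gene body or within 1 kb of the TSS of the 44 collagen genes (rows, by class) in 6 peak lists (columns). Dot area grows with the number, numbers of 10 or more are printed, and a bar to the left of a dot marks a summit within 1 kb of the TSS. COL4A2 has summits in all 6 lists, and the largest dots of the HA-SOX2 column are COL14A1, COL25A1, COL21A1 and COL19A1.

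Counts by class are set beside those of all genes. RBPJ was at 38%, 50.4%, 56.1% and 43% of all promoters in the order of lists used above, SOX2 at 21.8% and HA-SOX2 at 34%. Bodies of all genes held 1.11, 1.54, 1.99 and 1.57 RBPJ summits per 100 kb and 4.29 of HA-SOX2. Type IV genes, which encode the basement membrane network, had RBPJ at 4, 3, 6 and 4 of their 6 promoters in the order of lists used above, SOX2 at 3 and HA-SOX2 at 0. They lie in head-to-head pairs, where 1 summit can count for both genes. Of the 11 fibrillar genes, RBPJ was at the promoter of 1, 2, 3 and 2, and SOX2 and HA-SOX2 at 0. The 10 fibril-associated genes had RBPJ at 4, 5, 4 and 2 promoters and HA-SOX2 at 0, yet HA-SOX2 was in all 10 of their bodies with 88 summits (5.28 per 100 kb). The 4 transmembrane genes had RBPJ at 0, 3, 2 and 1 promoters, SOX2 at 2 and HA-SOX2 at 2. The pair of multiplexins, COL15A1 and COL18A1, which are proteoglycans of the basement membrane zone, had the densest RBPJ bodies with 5.08, 7.62, 4.66 and 4.23 summits per 100 kb. Type VI genes, whose products form beaded filaments around cells, had 0.894, 0.894, 0.223 and 0.67. These are counts over small classes and were not tested.

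RBPJ occupied 10 collagen promoters in all 4 of its lists (22.7%, against 25.7% of all genes). They were COL4A1, COL4A3 and COL4A4 of basement membranes, COL18A1, COL6A1, COL8A1 (a short-chain collagen of vessel and corneal endothelium), COL9A3 and COL12A1 (on the surface of type II and type I fibrils), COL26A1 and COL27A1 (a fibrillar collagen of cartilage). Their strength is given as the ratio, the fragments at the summit relative to the input background around it. At COL18A1, whose C-terminal fragment is endostatin, the summit 0.624 kb upstream of the TSS (chr21:45403136-45404928) had an RBPJ ratio of 4.06 with iEV and 8.21 with iSOX2 in MB157, and of 23.2 with iEV and 21.8 with iN1-ICD in MB157R, on 18, 37, 73 and 70 fragments. Both MB157R lists were thus above both MB157 lists, and neither SOX2 nor HA-SOX2 was called there. COL12A1 had ratios of 6.6, 6.01, 9.56 and 10.8 at 0.142 kb, in the same order of lists. COL9A3 had 4.25, 6.36, 7.03 and 5.99 at 0.298 kb. The COL26A1 summit 0.407 kb upstream varied less, with 6.36, 4.01, 6.38 and 5.47, as did that of COL27A1 0.136 kb upstream, with 5.01, 4.39, 4.73 and 5.32.

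At COL6A1 and COL8A1 all 6 lists met at the promoter. COL6A1 encodes the α1 chain of type VI collagen, and its site 0.409 kb upstream (chr21:45981003-45982187) had RBPJ ratios of 6.34, 6.27, 9.86 and 5.6, a SOX2 ratio of 3.28 and an HA-SOX2 ratio of 5.24. COL8A1 had RBPJ ratios of 7, 3.63, 5.89 and 8.46 at 0.159 kb in exon 1 (chr3:99637220-99638939), with 4.7 for SOX2 and 3.79 for HA-SOX2. None of these ratios reached the 90th percentile of its list except for COL6A1 in MB157R iEV, where that percentile was 9.78. Of the 458 sites at collagen promoters and bodies, where a site joins summits less than 500 bp apart, 9 were called in all 6 lists and 306 in 1 list. Sites were not counted in this way over the genome.

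The type IV genes lie in 3 head-to-head pairs, and each pair shares its upstream region. The canonical starts are 127 bp apart for COL4A1 and COL4A2 (chromosome 13), 419 bp for COL4A3 and COL4A4 (chromosome 2) and 1416 bp for COL4A5 and COL4A6 (chromosome X), so 1 summit can count for both genes. COL4A1 and COL4A2 encode the chains of the most widespread type IV network. In intron 1 of COL4A1, 0.741 kb from its start (chr13:110305955-110307219), RBPJ had a ratio of 5.12 in MB157 iEV (20 fragments), and in MB157R of 16.2 with iEV (65) and 9.98 with iN1-ICD (34). In MB157 iSOX2 no separate summit was called there, because 1 peak (chr13:110306014-110308910) spanned the region with its summit on the other side of the start. That second site, 1.48 kb upstream of COL4A1, was called in all 6 lists with RBPJ ratios of 7.93, 10.1, 7.88 and 6.14, a SOX2 ratio of 11.4 and an HA-SOX2 ratio of 11.9. It holds the SOX words printed above.

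COL4A3 and COL4A4, whose chains form the network of the kidney glomerulus, had an RBPJ promoter summit in every RBPJ list, at 2 sites. The site between the genes, 0.17 kb upstream of COL4A3, had ratios of 4.61 with iEV and 4.28 with iSOX2 in MB157 and of 4.51 with iN1-ICD in MB157R. The second site, 0.676 kb upstream of COL4A3 and inside COL4A4, was called in MB157R only, with 6.32 for iEV and 5.22 for iN1-ICD. SOX2 and HA-SOX2 were not called at either site. COL4A5 and COL4A6 on chromosome X had no MB157 summit at their promoters and were occupied in MB157R iEV, by RBPJ with a ratio of 7.09 and by SOX2 with a ratio of 5.74 at the same site, 0.16 kb upstream of COL4A5 (chrX:108439433-108439942). With the N1-ICD vector neither factor was called there. In intron 2 of COL4A6, RBPJ had its highest ratio of the pair, 12.3 with iEV and 8.35 with iN1-ICD in MB157R, beside a SOX2 ratio of 6.69.

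Between the parental and the resistant line, RBPJ summits at collagen loci were mostly different sites. A locus was the gene body and the 50 kb to either side of the TSS. Of 135 collagen summits in MB157 iEV, 52 (38.5%, 30.3 to 47.3) had an RBPJ summit of MB157R iEV less than 500 bp away, against 48.6% over the genome, which lay outside the interval. That interval takes the summits as independent, but many share a locus, and COL9A3 alone had 22 within 50 kb. Nor was the genome share matched for promoter sites, so a difference particular to collagen genes is not shown. In the other direction it was 52 of 209 (24.9%, 19.2 to 31.3), against 26.2%. At promoters, 9 collagen genes had an RBPJ summit in MB157R iEV and not in MB157 iEV (20.5%, against 22.7% of all genes), namely COL1A2, COL4A5, COL4A6, COL7A1, COL8A2, COL13A1, COL22A1, COL24A1 and COL25A1. The reverse held for COL9A2 alone (2.27%, against 4.57%). The gain in MB157R was thus of the size seen over all genes, in a list that also held more peaks.

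Some single sites changed far more than these shares. Of the 52 shared summits, 6 had a ratio at least 2-fold higher in MB157R iEV (11.5%, against 13.3% over the genome) and 0 had one at least 2-fold lower (against 2.95%). The COL18A1 promoter gave the largest change of the shared collagen summits, a ratio 5.72 times higher. Its fragments per genome background were 3.57 times higher (95% interval 2.11 to 6.36). The shared COL4A1 and COL4A2 promoter followed with a ratio 3.17 times higher and 2.86 times the fragments (1.71 to 4.99). At both, the interval for the fragments lay above no change. These sites were picked as the largest changes of the 52, and the intervals cover counting error only and do not allow for that choice.

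COL18A1 and COL27A1 held the strongest collagen sites seen in the parental line only. In intron 2 of COL18A1, 50.1 kb from the start (chr21:45454596-45456991), RBPJ had a ratio of 32.5 in MB157 iEV and 27.1 in MB157 iSOX2, on 121 and 120 fragments, and no peak in either MB157R list. A site in intron 4 of COL27A1 (chr9:114178538-114179519) had ratios of 22.4 and 15.5 in the MB157 lists, and intron 18 of COL4A2 (chr13:110447801-110449295) had 17.4 and 14.7. Neither had an MB157R peak. COL18A1 thus carried its highest MB157 ratio in intron 2 and its highest MB157R ratio near the 5′ end of the gene record. The gene has 7 annotated transcript starts, and whether the intron 2 site lies at another of them was not examined. Other sites were called in MB157R alone, among them 1 site 38.1 kb upstream of COL18A1 (18.4 with iEV and 16 with iN1-ICD) and 1 in intron 4 of COL4A2 (9.73 and 13.8). In all, 95 collagen sites at promoters and bodies were called in MB157 RBPJ lists only, 88 in MB157R RBPJ lists only and 53 in both lines. This split was not counted over the genome, so it is not shown to be particular to collagen genes.

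**Figure D3:**
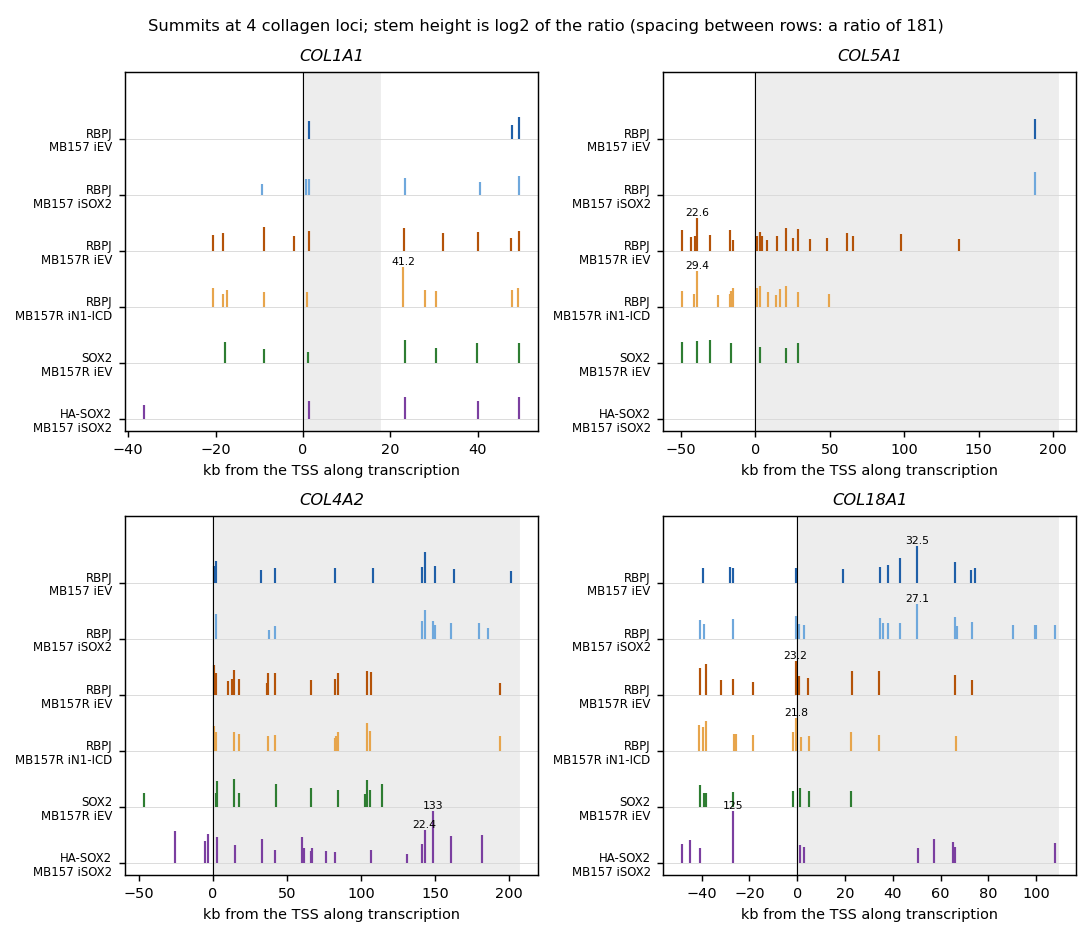
Summits at COL1A1, COL5A1, COL4A2 and COL18A1 in 6 peak lists, by distance from the TSS along transcription in kb (the grey area is the gene body). Stem height is the log2 of the ratio, and ratios of 20 or more are printed. COL5A1 is nearly empty in the MB157 lists, and the tall COL18A1 stems lie at 50.1 kb in MB157 and at the TSS in MB157R.

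Several collagen genes had more RBPJ summits in the MB157R lists than in the MB157 lists, among them COL5A1. COL5A1 encodes the main chain of type V collagen, which sets the diameter of type I fibrils. Its body held 1 RBPJ summit in each MB157 list, 14 with iEV and 8 with iN1-ICD in MB157R, and within 50 kb of its TSS there were 0, 0, 17 and 15. The highest was 39 kb upstream (chr9:134601990-134603743), with a ratio of 22.6 in MB157R iEV, 29.4 in MB157R iN1-ICD and 8.23 for SOX2. The site of the MB157 lists was elsewhere, in intron 64, with ratios of 6.53 and 8.57. COL1A1, the α1 chain of type I collagen, had 3, 6, 10 and 10 RBPJ summits within 50 kb of its TSS, and 1, 2, 1 and 1 in its body. The counts within 50 kb were 5, 5, 13 and 8 at COL8A2, 2, 2, 7 and 6 at COL7A1, and 1, 1, 5 and 5 at COL6A3. A site in intron 1 of COL1A1, 1.37 kb from the start, was called in all 6 lists, with RBPJ ratios of 5.64, 4.61, 6.7 and 4.16.

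The input background moved with these counts. Within 500 kb of the gene, the median local background of RBPJ peaks over the genome background went from 1 in MB157 iEV to 1.68 in MB157R iEV at COL1A1 and at COL5A1, while the peaks there went from 13 to 80 and from 12 to 59. A value of 1 is the floor of this measure, so a lower input would not show. The changes at COL1A1 and COL5A1, and the correlations below, include values at that floor. At COL6A3 it went from 1.03 to 1.46 and the peaks from 10 to 51. In the opposite direction, COL14A1 went from 2.61 to 1.68 and from 18 to 7 peaks, and COL9A3 from 1.92 to 1.26 and from 106 to 80. COL18A1 changed little, from 1.21 to 1.29. Across the 34 collagen genes with at least 5 peaks in both lists, the log2 change in peaks and that in background had a Spearman rho of 0.77 and a Pearson r of 0.74, a description of points that share libraries and, for neighboring genes, the region itself. Between MB157 iEV and iSOX2 (34 genes) rho was -0.02, and between MB157R iEV and iN1-ICD (39 genes) it was -0.28. The background can move with DNA copy number, and its part in the difference between the lines was not tested.

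**Figure D4:**
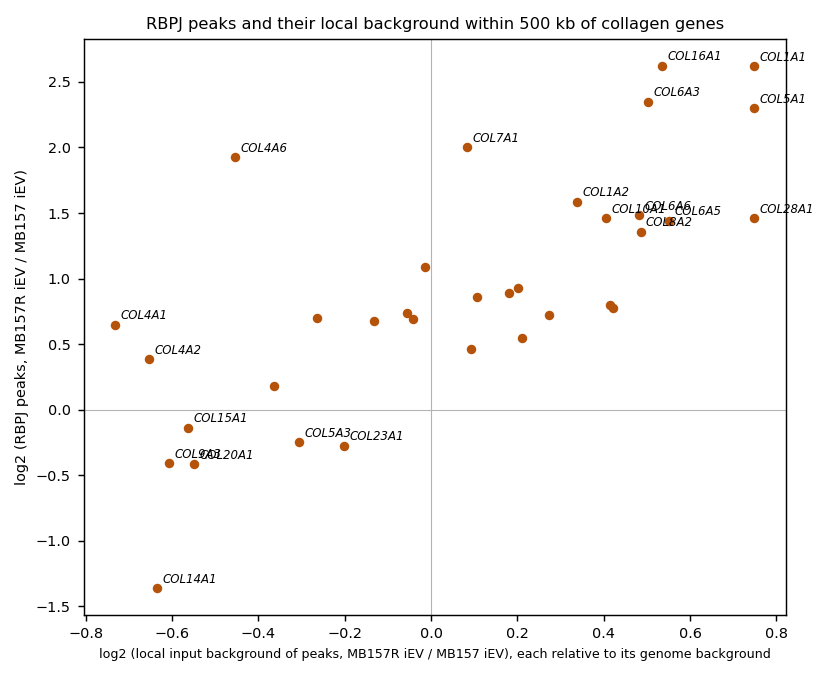
Change in the number of RBPJ peaks within 500 kb (log2, vertical) against the change in their local input background relative to the genome background (log2, horizontal) from MB157 iEV to MB157R iEV, 1 point for each of 34 collagen genes. Genes with large changes are named: COL1A1 and COL5A1 lie at the upper right and COL14A1 at the lower left.

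In MB157 cells, most collagen sites of RBPJ were called with the empty and with the SOX2 vector. Of 135 RBPJ summits in MB157 iEV, 96 (71.1%, 62.7 to 78.6) had an RBPJ summit of MB157 iSOX2 within 500 bp, against 68.5% over the genome. The median log2 change of the ratio over these 96 was -0.04, and it was -0.04 over the genome. Only the COL18A1 promoter had a ratio at least 2-fold higher, by 2.02 times, and its fragments were 1.62 times higher with an interval of 0.899 to 3.02, which includes no change. A ratio at least 2-fold lower was seen at 3 sites, in COL18A1 (10.1 to 4.36, 42.9 kb from the start), 23.7 kb into COL21A1 (8.81 to 4.03) and 5.85 kb upstream of COL9A3 (6.91 to 3.04). Their share, 3.12%, was near the 2.62% of the genome. RBPJ promoter summits were called with the SOX2 vector and not with the empty vector at COL1A1, COL6A2, COL13A1, COL22A1, COL23A1 and COL25A1 (13.6%, against 16%), and the reverse held for COL4A2 (2.27%, against 3.59%).

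Among the named sites of both lists, COL6A2 in intron 10, 19.1 kb from the start, had RBPJ ratios of 9.16 in MB157 iEV and 9.55 in MB157 iSOX2. COL6A3, in intron 23, had 10.4 and 7.25. COL26A1, a collagen of testis and ovary, had 10.3 and 6.57 in intron 1 at 11.1 kb, and 6.15 and 10.5 in intron 3 at 126 kb, where HA-SOX2 had a ratio of 47.6. COL14A1 had a best MB157 iEV ratio of 6.86, and COL28A1, a collagen of peripheral nerve, had an RBPJ summit with a ratio of 9.04 in intron 31 in MB157 iSOX2 and none in MB157 iEV.

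In MB157R cells, RBPJ had 209 summits at collagen loci with the empty vector and 167 with the N1-ICD vector, and a few distal sites of fibrillar and type VI genes had a higher ratio with N1-ICD. Of the 209 summits of MB157R iEV, 118 (56.5%, 49.4 to 63.3) had an RBPJ summit of MB157R iN1-ICD within 500 bp, against 56.3% over the genome. Over these 118 the median log2 change of the ratio was -0.19, and it was -0.23 over the genome. The ratio was at least 2-fold higher at 5 (4.24%, against 1.45% over the genome) and at least 2-fold lower at 7 (5.93%, against 6.47%).

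The 5 sites with a higher ratio lay at COL6A3, COL1A1, COL5A3, COL5A1 and COL15A1. They were picked for that change, which the intervals below do not allow for. COL6A3 encodes the long chain of type VI collagen, and 17.3 kb upstream of it (chr2:237431402-237431909) the ratio went from 3.59 to 27.1, on 20 and 94 fragments. Per genome background this was 4.88 times (2.99 to 8.36). The site 22.9 kb from the COL1A1 start, beyond its 3′ end (chr17:50177871-50179053), had ratios of 4.94 with iSOX2 in MB157, and of 8.68 with iEV and 41.2 with iN1-ICD in MB157R, on 14, 46 and 154 fragments. This was the highest RBPJ ratio at any collagen locus, with 3.48 times the fragments of MB157R iEV (2.49 to 4.95), and the nearest protein-coding start was SGCA, 14.5 kb away. SOX2 and HA-SOX2 were called at the same COL1A1 site with ratios of 8.35 and 8.33. Upstream of COL5A3, at 42.7 kb, the ratio went from 8.5 to 21 and the fragments rose 2.62 times (1.59 to 4.45). In intron 5 of COL15A1 it went from 5.77 to 13.1, with 1.83 times the fragments (1.04 to 3.29). At COL5A1, 15 kb upstream, the ratio went from 2.76 to 6.27, while the fragments gave 1.21 times (0.615 to 2.41), an interval that includes no change.

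At promoters RBPJ was called at 21 collagen genes with iEV and at 14 with N1-ICD. The share over all genes was lower too (56.1% and 43%), in a shorter list (46601 and 37297 peaks). With lists of equal length the collagen counts were 17 and 14, against 42.2% and 32.2% of all genes. RBPJ was called in MB157R iEV and not with N1-ICD at COL1A2, COL4A5, COL4A6, COL8A2, COL13A1, COL19A1, COL22A1 and COL24A1 (18.2%, against 15.6% of all genes), and the reverse held for COL1A1 (2.27%, against 2.53%). COL1A2, the partner chain of COL1A1 in type I collagen, had its only RBPJ summit within 50 kb in MB157R iEV, in exon 1 with a ratio of 4.02 on 14 fragments. COL7A1, which forms the anchoring fibrils of skin, was the only collagen gene with a promoter summit in both MB157R lists and in neither MB157 list (2.27%, against 5.07% of all genes). Its ratios 0.162 kb upstream (chr3:48594227-48596189) were 7.66 with iEV and 5.81 with iN1-ICD in MB157R, and SOX2 had 7.15.

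Further RBPJ sites of MB157R lay in introns. COL19A1, a fibril-associated collagen, had ratios in intron 2 of 5.82 with iSOX2 in MB157, and of 13.8 with iEV and 9.44 with iN1-ICD in MB157R. COL15A1 in intron 35 had 10.5 and 12.2 in the MB157R lists, beside the 13.1 of its intron 5. COL27A1 in intron 37 had 12.3 and 7.56. COL8A2, the partner of COL8A1, was called in all 4 RBPJ lists in intron 3 with 5.95, 8.61, 10.1 and 7.37, and sites 25.6 and 30.6 kb upstream of it each had 10.5 in MB157R iEV. COL24A1, a fibrillar collagen of developing bone, had 8.4 and 8.9 in intron 37 in the MB157R lists. COL25A1, a transmembrane collagen of neurons, was called in all 6 lists at the intron 10 site printed above, with RBPJ ratios of 6.92, 6.42, 9.92 and 10.2, 9.8 for SOX2 and 21.1 for HA-SOX2.

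**Figure D5:**
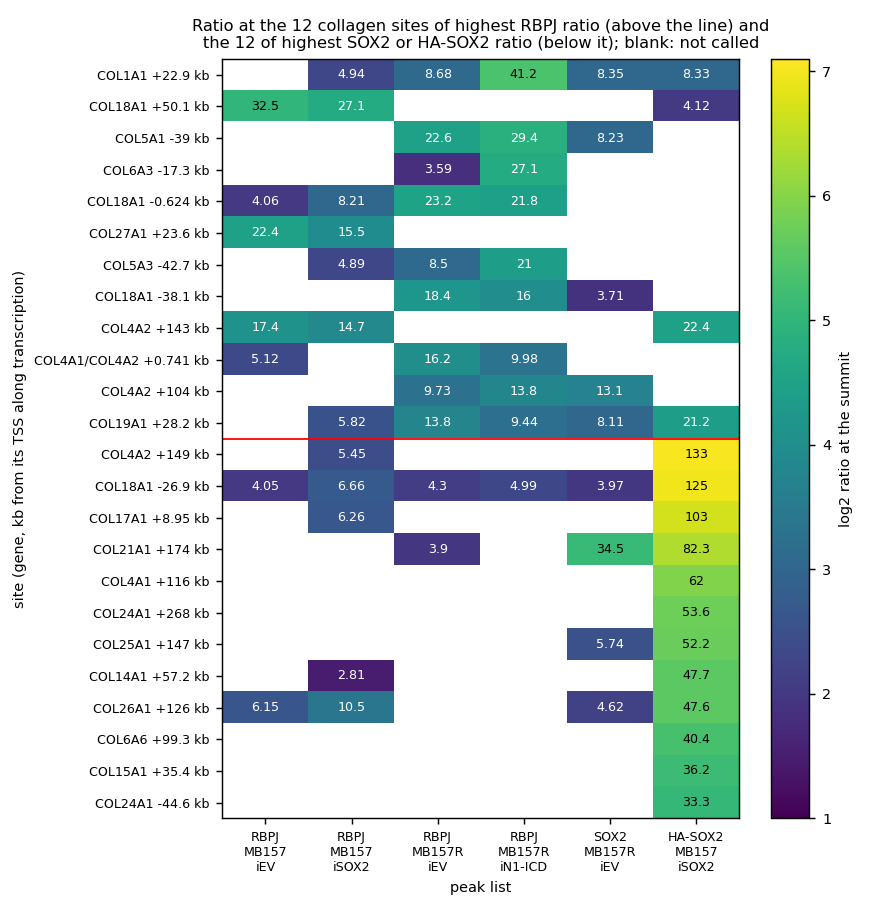
Ratio at the 12 collagen sites with the highest RBPJ ratio (above the red line) and the 12 others with the highest SOX2 or HA-SOX2 ratio (below it) in 6 peak lists. Colour is the log2 of the ratio, the ratio is printed, and blank means that no peak was called. RBPJ sites split into those of MB157 (COL18A1 at 50.1 kb, COL27A1, COL4A2 at 143 kb) and those of MB157R, and the sites below the line reach 133 with HA-SOX2.

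SOX2 in MB157R iEV was at 37 of the 44 collagen genes in at least 1 of these windows (84.1%, against 75.7% of all genes), and every call was lost in the list of the N1-ICD vector. Of 150 SOX2 summits at collagen loci, 0 had a summit of SOX2 in MB157R iN1-ICD within 500 bp, where the interval reached 2.43% and the share over the genome was 0.796%. That list held 323 peaks, so nearly all SOX2 summits of the genome were lost alike. The 9 promoters with SOX2 were COL4A1, COL4A5, COL4A6, COL6A1, COL7A1, COL8A1, COL9A2, COL13A1 and COL17A1. Ratios at these promoters were low, from 3.28 at COL6A1 to 7.15 at COL7A1. The COL4A1 summit 0.862 kb upstream had 3.76, and COL13A1, a transmembrane collagen of the neuromuscular junction, had 3.72.

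The strongest SOX2 site was in intron 1 of COL21A1, a fibril-associated collagen of vessel walls, 174 kb from its start (chr6:56219867-56220890), with a ratio of 34.5 on 101 fragments. HA-SOX2 was called at the same place with 82.3 on 318 fragments, and RBPJ only in MB157R iEV with 3.9. Within gene bodies it was followed by intron 44 of COL14A1 (16.6), intron 3 of COL4A2 (13.7) and intron 1 of COL8A1 (11.7). Outside them, SOX2 had 14.5 upstream of COL8A2 and 11.6 upstream of COL17A1. COL25A1 had 9.8 at its intron 10 site, COL13A1 had 9.63 in intron 2, COL9A2 had 9.49 in intron 2, COL19A1 had 8.11, COL4A6 had 7.77 in intron 3 and COL27A1 had 7.5. Of these sites in gene bodies after that of COL21A1, those of COL25A1, COL9A2 and COL19A1 held an HA-SOX2 summit and the others did not. COL4A6 had 10 SOX2 summits in its body and 0 of HA-SOX2.

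The median ratio at collagen loci was 6.1 for HA-SOX2 in MB157 iSOX2 (5.99 over its whole list) and 5.21 for SOX2 in MB157R iEV (5.32), and the highest collagen ratios were 133 and 34.5, in lists that reached 194 and 62.9. The highest HA-SOX2 ratio was in intron 20 of COL4A2, 149 kb from its start (chr13:110453734-110456328), with a ratio of 133 on 1013 fragments. An RBPJ summit less than 500 bp away was called in MB157 iSOX2 with 5.45. A second RBPJ site inside the same region (chr13:110455550-110456240) had 4.94 with iEV and 3.59 with iSOX2 in MB157, and neither MB157R list had a summit at either site. A site 26.9 kb upstream of COL18A1 (chr21:45377690-45379310) had an HA-SOX2 ratio of 125 and was called in all 6 lists, with RBPJ ratios between 4.05 and 6.66 and 3.97 for SOX2. Intron 4 of COL17A1, the hemidesmosome collagen that anchors basal epithelial cells, had 103 (chr10:104076410-104077882), with RBPJ in MB157 iSOX2 at 6.26. COL4A1 had 62 in intron 24, COL24A1 53.6 in intron 32, COL25A1 52.2 in intron 3, COL14A1 47.7, COL6A6 40.4 in intron 23 and COL15A1 36.2 in intron 2.

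HA-SOX2 was weaker at promoters. Its promoter summits were at COL6A1, COL8A1 and COL17A1, which also had SOX2 in MB157R iEV, and COL25A1, COL26A1 and COL28A1, which did not. COL17A1 had 4.93 for HA-SOX2 and 3.77 for SOX2 0.237 kb upstream, COL28A1 had 4.08, COL26A1 4.63 and COL25A1 2.99. The gene with the most HA-SOX2 summits in its body was COL14A1 with 31, beside 3 of SOX2. It was followed by COL25A1 with 24, COL21A1 with 23 and COL19A1 with 20. These 4 genes are long, at 314, 494, 338 and 346 kb in that order, against a collagen median of 145 kb. Around COL14A1 the local background of HA-SOX2 peaks was also 2.69 times the genome background. Of the 458 sites, 186 were called in the HA-SOX2 list only and 28 by both SOX2 and HA-SOX2, again without a count over the genome. Of the 150 SOX2 summits, 46 (30.7%, 23.4 to 38.7) had an HA-SOX2 summit within 500 bp, against 34.7% over the genome, and of 344 HA-SOX2 summits, 46 (13.4%, 9.96 to 17.4) had a SOX2 summit, against 12.2%. These lists differ in cell line, antibody, expression of SOX2 and number of peaks, which cannot be told apart.

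RBPJ and SOX2 shared many collagen sites in MB157R iEV. Of 209 RBPJ summits, 89 (42.6%, 35.8 to 49.6) lay within 500 bp of a SOX2 summit, against 46.4% over the genome, while an RBPJ summit was this near to 90 of 150 SOX2 summits (60%, 51.7 to 67.9), against 57%. Both were at the promoters of COL4A1, COL4A5, COL4A6, COL6A1, COL7A1, COL8A1 and COL13A1 (15.9%, against 20.3% of all genes). SOX2 without RBPJ was at COL9A2 and COL17A1 (4.55%, against 1.48%). In MB157 iSOX2, 70 of 190 RBPJ summits (36.8%, 30 to 44.1) lay near an HA-SOX2 summit, against 47.1% over the genome, which is outside the interval, and 69 of 344 HA-SOX2 summits (20.1%, 16 to 24.7) lay near an RBPJ summit, against 15%, which is also outside it. The first is the lower share and the second the higher one. Both intervals take summits of the same locus as independent, so neither is shown to be particular to collagen genes. Both factors were at the promoters of COL6A1, COL8A1, COL25A1 and COL26A1 (9.09%, against 27.9%).

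Motifs near collagen summits were set beside those of the whole lists. The 100 bp to each side of a summit were searched on both strands, with TGGGAA for RBPJ, ACAANG and AACAAT for SOX, TGANTCA for AP-1 and GGAATG for TEAD, which can overlap the RBPJ word in GGAA. The RBPJ word was near 45.9%, 43.2%, 37.3% and 43.7% of collagen RBPJ summits in the order of lists used above, against 41.2%, 36.9%, 33.1% and 39% of all RBPJ summits. The SOX words were near 58.7% of collagen SOX2 summits, against 57%, and near 69.8% of HA-SOX2 summits, against 73.6%. The AP-1 word differed most between the lines. It was near 6.67% and 8.42% of collagen RBPJ summits in MB157 iEV and iSOX2 and near 18.7% and 18% in MB157R iEV and iN1-ICD, against 6.37%, 6.38%, 23.1% and 21.5% of all RBPJ summits. It was near 38% of collagen SOX2 summits in MB157R iEV (against 39.9%) and 10.5% of HA-SOX2 summits (against 9.83%). The TEAD word was near 20%, 16.8%, 20.1% and 21.6% of collagen RBPJ summits, against 14.6%, 13.9%, 15.1% and 16.6%, and near 24.7% of SOX2 summits (18 to 32.4, against 19%) and 18% of HA-SOX2 summits (against 15%). Its share was thus above that of the whole list in all 6. Within 50 bp it was near 18.7% of collagen SOX2 summits (12.8 to 25.8), against 10.5%, and near 13.4% of RBPJ summits in MB157R iEV (9.09 to 18.8), against 8.35%, and in both the share of the whole list lay below the interval. Around the collagen start sites themselves, TGGGAA was within 100 bp of 7 of 44 (15.9%, against 15.1% of all genes) and a SOX word of 12 (27.3%, against 23.3%).

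Values of 3 more fibrillar genes and of COL6A2 complete the account. COL3A1 had summits of HA-SOX2 alone, 5 within 50 kb and 0 in the body, the highest 22.9 kb upstream with a ratio of 15.1. COL5A2, the partner of COL5A1 in type V collagen, had RBPJ in MB157R iN1-ICD only, at 8.04 in intron 1 and 3.46 in intron 6, while HA-SOX2 had 7 summits in the body with a highest ratio of 29. COL2A1, the cartilage collagen, had 4, 4, 2 and 2 RBPJ summits within 50 kb in the order of lists used above. It had HA-SOX2 at 32.3 17.6 kb upstream, where SOX2 had 4.25 and RBPJ 3.38 and 3.97 in the MB157 lists. COL6A2, a type VI gene that lies 116342 bp from COL6A1 on the same strand, had 4, 6, 9 and 6 RBPJ summits within 50 kb and a promoter summit of RBPJ only in MB157 iSOX2, with a ratio of 3.46.

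Genes that make, process and read collagen were counted as lists beside the collagen genes. Of 17 modifying enzymes and chaperones, RBPJ was at the promoter of 11, 10, 12 and 9 in the order of lists used above. They include P4HB and P4HA1, subunits of the prolyl 4-hydroxylase that stabilises the triple helix, PLOD1, a lysyl hydroxylase, and CRTAP and P3H1 of the prolyl 3-hydroxylase complex, each with a promoter summit in all 4 lists. The shares, from 52.9% to 70.6%, are above the 38% to 56.1% of all genes and above those of the collagen genes. SOX2 was at 3 of the 17 and HA-SOX2 at 3, 17.6% each, against 21.8% and 34% of all genes. Of 13 genes for processing and cross-linking, RBPJ was at 4, 6, 6 and 7 (30.8%, 46.2%, 46.2% and 53.8%, against 38%, 50.4%, 56.1% and 43% of all genes), with the lysyl oxidase LOX in both MB157R lists and neither MB157 list. SOX2 was at 0 of them and HA-SOX2 at 2 (15.4%). Of 10 collagen receptors, RBPJ was at 5, 4, 5 and 4 (50%, 40%, 50% and 40%), above the share of all genes in MB157 iEV and below it in the other 3 lists, with ITGA1, ITGB1 and MRC2 in all 4 lists. SOX2 and HA-SOX2 were at 4 receptors each (40%), above the shares of all genes. Of 7 collagen-degrading proteases, RBPJ was at 0, 0, 3 and 1 (42.9% and 14.3% in MB157R), below all genes in every list. These were MMP13, MMP14 and MMP9 in MB157R iEV and MMP9 in MB157R iN1-ICD, and SOX2 was at MMP1 and MMP13 in MB157R iEV (28.6%). The lists are small, and their counts were not tested.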

How the data were processed

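Per the labels and the study's methods, paired-end reads of 34 libraries were trimmed with bclconvert, aligned with BWA to hg38, and narrow peaks were called with MACS2 (nf-core/chip-seq pipeline) after pooling the libraries of a group, against inputs. Versions of BWA and MACS2 are not given in the sources used here. The 8 deposited lists give peak positions in bp (other columns), a score, the authors' ratio (fold enrichment at the summit), the deposited −log10 p and the deposited −log10 q. Ratio and −log10 p together give the whole fragments at the summit and the expected background, with a pseudocount of 1, which were recovered for 100% of peaks within a tolerance of 0.001 of the −log10 p. Median fragments at a summit were 15 to 23. Read totals per library were not used here.

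Samples were grouped by the titles in the labels. Summits were counted within 1 kb and 50 kb of the TSS (the 5′ end of the GENCODE 44 gene record) and in the gene body. Summits less than 500 bp apart were the same site. Shares have exact binomial 95% intervals and ratios of fragments exact conditional ones. Alternatives were the TSS of any transcript, a promoter of 5 kb, peak regions in place of summits, distances of 100 and 1000 bp, overlap of regions, a −log10 q of at least 5, lists of equal length and motif windows of 50 bp. The counting steps were tested on simulated data. The analysis ran on scipy 1.17.1, pysam 0.24.0, pandas 2.3.3, matplotlib 3.10.9, numpy 2.4.6 and Python 3.11.15. Sequence was read from hg38.

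The collagen genes and all gene lists were chosen with earlier results of these data known. Genes named were those with an RBPJ promoter summit in all 4 RBPJ lists or a SOX2 or HA-SOX2 promoter summit, the 10 with the highest ratio in each list, the head-to-head pairs and COL1A1, COL1A2, COL3A1, COL5A1, COL5A2, COL6A1, COL6A2, COL6A3, COL7A1, COL17A1 and COL18A1. Other genes, sites outside the body, and the sites of largest change were named after their values had been seen.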

Additional observations from a re-analysis of the deposited data

How the results depend on the processing

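No paired analysis was possible because peaks had been called on pooled libraries, and for the same reason no replicate could be left out. Of 150 values under alternative settings, 95 stayed near the value given (a count of genes within 1.5 times of it, a share within its interval) and 55 moved beyond that. With the start of any transcript, promoters counted were 20 for RBPJ in MB157 iEV (45.5%, against 46.2% of all genes), 16 for SOX2 (36.4%, against 30%) and 18 for HA-SOX2 (40.9%, against 45%). Within 5 kb they were 20 (45.5%, against 47%), 17 (38.6%, against 32.2%) and 20 (45.5%, against 52.3%). Of promoters within 5 kb, 14 were shared by RBPJ and SOX2 in MB157R iEV and 16 by RBPJ and HA-SOX2 in MB157 iSOX2. With a −log10 q of at least 5, RBPJ was at 7 promoters with iEV (15.9%, against 23.5% of all genes) and 8 with iSOX2 (18.2%, 8.19 to 32.7, against 34.4%) in MB157, promoters were 4 for SOX2 (9.09%, against 11.1%) and 3 for HA-SOX2 (6.82%, 1.43 to 18.7, against 20.9%), 4 and 1 were shared, and 12.9% of HA-SOX2 summits were near RBPJ. With peak regions, HA-SOX2 was at 10 promoters. Counted from the gene body outward, SOX2 in MB157R iN1-ICD was within 50 kb of 1 gene. At these settings the shared promoters, the share near RBPJ and the counts by peak region or outward from the body were not computed over all genes or the genome.

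With lists of equal length (25243 peaks for RBPJ, 37963 for SOX2 and HA-SOX2), HA-SOX2 was at 0 promoters (interval up to 8.04%, against 3.98% of all genes) and in 21 bodies (47.7%, against 36.6%), and it shared 0 promoters with RBPJ. RBPJ in MB157 iSOX2 was then at 12 promoters (27.3%, 15 to 42.8, against 43%, outside the interval). MB157 iEV summits found in MB157R iEV were then 26.7%, those found in iSOX2 60%, MB157R iEV summits found with N1-ICD 63.6%, SOX2 summits near HA-SOX2 8.67%, RBPJ summits near SOX2 50.6% and RBPJ summits near HA-SOX2 10.5%. At 100 bp, in the same order, shares were 23%, 40.7%, 34.4%, 20%, 19.6% and 20.5%, with SOX2 near RBPJ 27.3% and HA-SOX2 near RBPJ 11.3%. At 1000 bp, MB157 iEV summits found in MB157R iEV were 48.1%, MB157R iEV summits found with N1-ICD 63.6% and RBPJ summits near HA-SOX2 44.2%. Overlap of regions gave 48.1% and 44.2% for the first and the last. These shares between lists, and the shared promoters, were not computed over the genome at these settings.

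Motif windows of 50 bp gave 34.8%, 29.5%, 25.4% and 32.3% of RBPJ summits with TGGGAA, 40.7% and 52.3% of SOX2 and HA-SOX2 summits with a SOX word, AP-1 shares of 2.63%, 10% and 7.78% for RBPJ in MB157 iSOX2, MB157R iEV and iN1-ICD, 22.7% for SOX2 and 5.23% for HA-SOX2, and TEAD shares of 9.63%, 8.95%, 13.4% and 13.2% for RBPJ and 10.2% for HA-SOX2. The shorter lists, distances and windows hold fewer summits or bases by construction.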
